A study of Schizosaccharomyces pombe with 6 samples.

Results

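The RNAs of 10 fission yeast proteins of the nucleolus were followed in *siw14*∆ and wild-type cells of *Schizosaccharomyces pombe*. They are 4 ribosome assembly factors, *mak16* (SPAC222.06), *ebp2* (SPAC17H9.05), *rrp8* (SPAC56F8.09) and *puf6* (SPCP1E11.11), and 6 core proteins of the nucleolus, *fib1* (SPBC2D10.10c), *gar2* (SPAC140.02), *nop56* (SPBC646.10c), *nop58* (SPAC23G3.06), *gar1* (SPBC20F10.01) and *cbf5* (SPAC29A4.04c). The genes were taken by their systematic IDs from the 6988 loci of the count table, and all 10 passed edgeR's filter on low counts, as did 5774 loci in all. They were picked with the *siw14*∆ values of some of them already known, so their own differences between the genotypes are given as a description. Where calls from the fit over all loci are given for them, these do not serve as a test.

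The *siw14*∆ strain (h- *siw14*∆::HygMX) carries a drug resistance cassette at the locus of Siw14, a pyrophosphatase that acts on inositol pyrophosphates, and the wild type is an unmarked h- strain. Both are single strains, each sampled as 3 biological replicates from log-phase growth at 30 °C in YES, a rich medium, and poly(A)+ RNA was sequenced. Counts in genes ranged from 12875286 to 14583056 per library. The *siw14* RNA had 13, 12 and 14 counts in *siw14*∆ replicates 1, 2 and 3, against 2014, 2414 and 2377 counts in wild-type replicates 1, 2 and 3, so that every library carried the level its label calls for.

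Ribosomal RNA is transcribed by RNA polymerase I in the nucleolus, where it is modified, cut and packed with ribosomal proteins. Small nucleolar ribonucleoproteins (snoRNPs) of the box C/D class, built on fibrillarin (Fib1), Nop56, Nop58 and Snu13, methylate ribose at sites chosen by their guide RNA, and those of the box H/ACA class, built on the pseudouridine synthase Cbf5 with Gar1, Nhp2 and Nop10, convert uridine to pseudouridine. Gar2 is the fission yeast nucleolin. Assembly factors join the precursor particles for a few steps and leave again. In budding yeast, Mak16 and Ebp2 act in the early large subunit particle, Rrp8 methylates an adenine of the large rRNA, and Puf6 is an RNA-binding protein that acts in large subunit assembly.

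Values below are normalized counts, that is counts scaled by the trimmed mean of M values (TMM) to one common library size, unless stated otherwise. The 4 assembly factor RNAs were higher in all 3 *siw14*∆ libraries than in any wild-type library. Their log2 fold changes (*siw14*∆ over wild type) ran from 0.68 to 1.01, with a median of 0.74. The 6 core protein RNAs ran from -0.15 to 0.24, with a median of -0.03, and only *nop56* had no overlap between the genotypes. Over all loci kept the median was 0.01. At an adjusted p of at most 0.05 (edgeR's quasi-likelihood test over all loci), 16.7% of loci were higher and 4.99% were lower in *siw14*∆ cells, 21.7% in all. By that criterion 4 of the 10 genes were higher, the assembly factors, and none was lower. The choice of genes helped to set that count, so it describes them and does not test them. That count was 0 without *siw14*∆ replicate 2, without *siw14*∆ replicate 3 and with a trend over RNA level removed, where 0 of all loci were called higher too, and 6 with library totals as the only scaling, where 1368 of all loci were. All *siw14*∆ libraries lay above all wild-type libraries at 5 of the 10 genes and below them at none. Over all loci the shares were 27.7% above and 19.2% below, 46.9% together.

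The *mak16* RNA had 834, 1114 and 946 normalized counts in *siw14*∆ replicates 1, 2 and 3, against 465, 662 and 623 in wild-type replicates 1, 2 and 3. Its lowest *siw14*∆ library thus lay above its highest wild-type library, and the log2 fold change was 0.72 (standard error 0.15, n = 3 per genotype). For *ebp2* there were 1577, 1988 and 1676 normalized counts in the *siw14*∆ replicates, against 839, 1219 and 1207 in the wild-type replicates. Wild-type replicate 1 was the low library there as well, and the log2 fold change was 0.68 (standard error 0.14). The rRNA methyltransferase gene *rrp8* was the least abundant of the 10, with 471, 588 and 525 normalized counts in the *siw14*∆ replicates, against 221, 306 and 260 in the wild-type replicates. This was the widest separation of the genotypes among the 10 genes, a log2 fold change of 1.01 (standard error 0.15). With a minimum of 2-fold higher and a *siw14*∆ mean of 100 normalized counts added to the same adjusted p, *rrp8* alone of the 10 stayed. So did 0.104% of all loci, a share that counts only loci higher in *siw14*∆ cells. *rrp8* passed 2-fold narrowly. Its log2 fold change was 0.98 by DESeq2, 0.93 without *siw14*∆ replicate 2 and 0.70 with a trend over RNA level removed. With library totals as the only scaling it was 1.18. The Puf family gene *puf6* had 2017, 2444 and 2078 normalized counts in the *siw14*∆ replicates, against 1062, 1432 and 1404 in the wild-type replicates. Here too the genotypes stood apart, with a log2 fold change of 0.75 (standard error 0.12).

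Within each library *mak16*, *ebp2* and *puf6* kept similar proportions to each other. The ratio of *puf6* to *mak16*, each per kilobase of exon, was 1.43, 1.29 and 1.30 in the *siw14*∆ replicates and 1.35, 1.28 and 1.33 in the wild-type replicates. The ratio of *ebp2* to *mak16* was 0.659, 0.621 and 0.616 in the *siw14*∆ and 0.628, 0.641 and 0.675 in the wild-type replicates. Both ratios overlapped between the genotypes. The assembly factor *rrp8* did not keep to these proportions. On the log2 scale, relative to the median RPKM of the 10 genes in each library, *rrp8* was higher in *siw14*∆ cells by 0.83. The same difference was 0.55 for *mak16*, 0.51 for *ebp2* and 0.57 for *puf6*. Among wild-type libraries, replicate 1 was the lowest for all 4 factors, as it was for 41.1% of all loci. Among *siw14*∆ libraries, replicate 2 was the highest for all 10 genes, as it was for 45.8% of all loci.

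**Figure D1:**
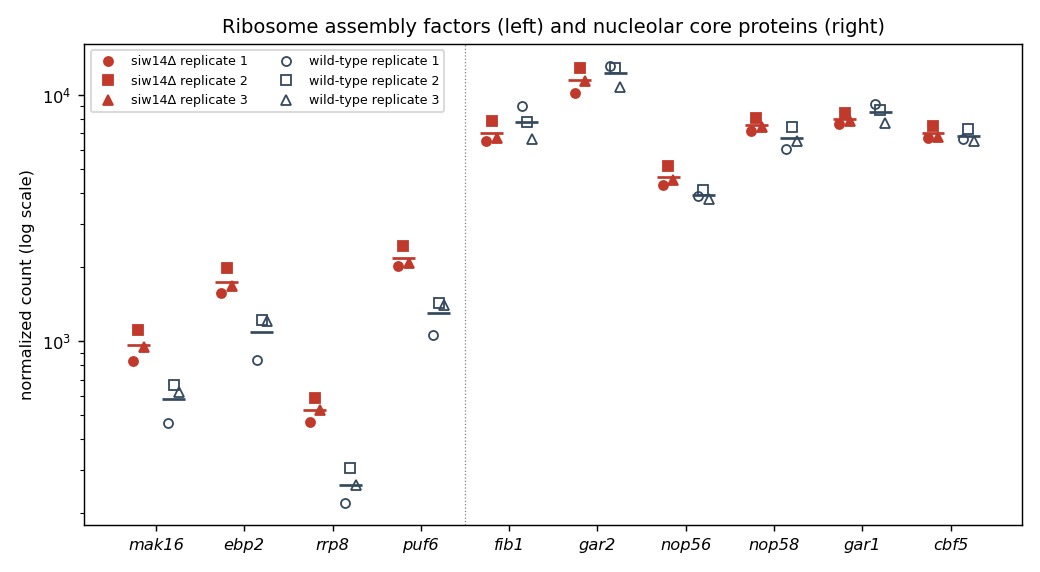
Normalized counts (log axis) of the 10 genes in each *siw14*∆ library (red, filled) and wild-type library (dark, open), with a line at each mean of 3 libraries; marker shape gives the replicate number. The red and dark points do not overlap for the 4 assembly factors at left (for *rrp8*, 471 to 588 against 221 to 306) and for *nop56*, and they overlap for the other 5 core protein genes.

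Of the box C/D core, *fib1*, which encodes the methyltransferase, had 6530, 7861 and 6691 normalized counts in *siw14*∆ replicates 1, 2 and 3, against 9037, 7779 and 6618 in wild-type replicates 1, 2 and 3. The genotypes overlapped, and wild-type replicate 1, the low library for the assembly factors, was the high one here (log2 fold change -0.15, standard error 0.13). The scaffold gene *nop56* had 4316, 5143 and 4507 normalized counts in the *siw14*∆ replicates, against 3891, 4121 and 3793 in the wild-type replicates. All *siw14*∆ libraries were above all wild-type libraries, by a log2 fold change of 0.24 (standard error 0.10) that is small beside those of the assembly factors. Its paralog *nop58* had 7145, 8072 and 7431 normalized counts in the *siw14*∆ replicates, against 6066, 7452 and 6514 in the wild-type replicates. Wild-type replicate 2 lay among the *siw14*∆ values, and the log2 fold change was 0.18 (standard error 0.10).

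Of the box H/ACA core, the pseudouridine synthase gene *cbf5* had 6715, 7496 and 6774 normalized counts in the *siw14*∆ replicates, against 6656, 7270 and 6497 in the wild-type replicates. The genotypes were interleaved (log2 fold change 0.04, standard error 0.09). Its partner *gar1* had 7612, 8470 and 7831 normalized counts in the *siw14*∆ replicates, against 9243, 8684 and 7698 in the wild-type replicates, again interleaved (log2 fold change -0.10, standard error 0.10). The nucleolin gene *gar2* was the most abundant by count, with 10193, 12903 and 11393 normalized counts in the *siw14*∆ replicates, against 13149, 12942 and 10833 in the wild-type replicates. All but 1 wild-type library exceeded every *siw14*∆ library, and the log2 fold change was -0.10 (standard error 0.12).

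The proteins that complete both cores were not among the 10 genes, and none of their RNAs passed the test. Nhp2 of the H/ACA core had a log2 fold change of its RNA of 0.15 (standard error 0.09, edgeR adjusted p = 0.198). *nop10* had 0.14 (standard error 0.15, adjusted p = 0.512 from edgeR). *snu13* of the C/D core had -0.10 (standard error 0.11, adjusted p = 0.533 from edgeR).

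Within the cores, ratios of the RNAs to each other do not depend on how libraries are scaled. The ratio of *fib1* to *nop56*, each per kilobase of exon, was 1.93, 1.95 and 1.90 in the *siw14*∆ replicates, against 2.97, 2.41 and 2.23 in the wild-type replicates. All 3 wild-type values were higher, and they spread over a wider range than the *siw14*∆ values. Likewise the ratio of *gar1* to *cbf5* was 2.05, 2.04 and 2.09 in the *siw14*∆ replicates, against 2.51, 2.16 and 2.14 in the wild-type replicates, with wild-type replicate 1 well above the others. The ratio of *nop58* to *nop56* was 1.43, 1.36 and 1.42 in the *siw14*∆ and 1.35, 1.56 and 1.48 in the wild-type replicates, which overlap.

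In RPKM, counts per kilobase of exon scaled to library size, with exon lengths of the ASM294v3 annotation, the core protein RNAs were all above the assembly factor RNAs in every library. *gar1* led with a mean of 587 RPKM over the 6 libraries (range 541 to 657). *gar2* (mean 427 RPKM) and *fib1* (mean 413 RPKM) followed and overlapped each other. *cbf5* and *nop58* came next with means of 272 and 268 RPKM and also overlapped, and *nop56* lay below them at 187 RPKM (range 165 to 224). Among the assembly factors the order was *puf6*, *mak16*, *ebp2* and *rrp8*, with means of 63.3, 47.8, 30.5 and 20.6 RPKM, and each of these overlapped the next in its range over the libraries. The *ebp2* level rests on an annotated exon of 3390 bases.

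Summed over the 4 assembly factors, the RPKM came to 9.20%, 9.94% and 9.49% of the summed RPKM of the 6 core protein genes in *siw14*∆ replicates 1, 2 and 3, against 4.23%, 5.98% and 6.55% in wild-type replicates 1, 2 and 3. The means were 9.54% ± 0.37 in *siw14*∆ and 5.58% ± 1.21 in wild-type cells (SD, n = 3 each). The core protein genes summed to 2133 ± 173 RPKM in *siw14*∆ and 2175 ± 177 RPKM in wild-type cells, and the assembly factors to 204 ± 24.6 and 120.4 ± 20.5 RPKM (SD, n = 3 each). The classes lie at different RNA levels, and fold changes varied with level over all loci. Median log2 fold changes were 0.74 for the assembly factors and -0.03 for the core proteins. With a trend over level removed they were 0.72 and 0.20.

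**Figure D2:**
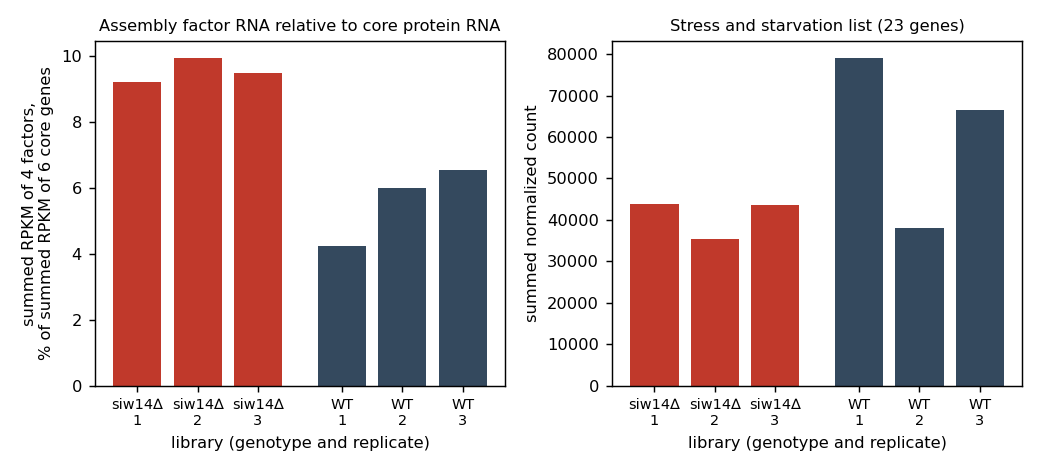
Left, summed RPKM of the 4 assembly factors as a percentage of the summed RPKM of the 6 core protein genes; right, summed normalized count of 23 stress and starvation genes; 1 bar per library, *siw14*∆ in red and wild type in dark, with both axes from 0. The assembly factor share is 9.20% to 9.94% in *siw14*∆ and 4.23% to 6.55% in wild-type libraries, and wild-type replicate 2 has a stress sum (38020) inside the *siw14*∆ range.

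Wild-type libraries differed among themselves in the RNAs of a list of 23 stress and starvation genes. These were picked as markers of another growth state that such cultures could hold, and the state of each culture was not tested. The list summed to 43944, 35409 and 43508 normalized counts in *siw14*∆ replicates 1, 2 and 3, against 79121, 38020 and 66615 in wild-type replicates 1, 2 and 3. None of its genes was at 0 in any library, and 7 of the 23 fell, none rose and 16 did not pass (edgeR adjusted p of at most 0.05; 12 were lower and 0 higher at an unadjusted p under 0.05, and DESeq2 and limma-voom also put 0 higher). By edgeR 16 passed as lower without wild-type replicate 2, and 0 without any other single library, where 7 to 12 were lower at an unadjusted p, or with the trend over level removed, where 13 were. The list was chosen with earlier results of these data known. Its genes *mei2* and *SPAC26H5.09c* had already been named as lower in *siw14*∆ cells from these same libraries. Both are among the 7 that fell, so that count describes the list and does not test it. The share that fell was 30.4%, where 4.99% of all loci were lower by the same criterion. The meiotic regulator *mei2* had 398, 349 and 360.3 normalized counts in the *siw14*∆ and 1523, 387 and 1434 in the wild-type replicates. Wild-type replicate 2 thus had a summed level of the list, and a *mei2* level, inside the range of the *siw14*∆ libraries. Single genes of the list differed from this. In all 3 *siw14*∆ libraries, 5 of the 23 were higher and 7 lower than in wild-type replicate 2. *hsp16*, for one, had 889, 506 and 778 normalized counts in the *siw14*∆ replicates, against 236 in wild-type replicate 2. Set against that library alone, with no test, 38.2% of all loci were higher and 31.2% lower in all 3 *siw14*∆ libraries, and the assembly factors were higher in all 3, by log2 differences of 0.53 for *mak16*, 0.51 for *ebp2*, 0.78 for *rrp8* and 0.60 for *puf6*. The core proteins differed from it by -0.18 (*gar2*) to 0.17 (*nop56*), and only *nop56* was higher in all 3. In RNA from whole cultures, a change in every cell and a change in the share of cells in another state cannot be told apart.

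The fold changes of these libraries varied with RNA level across the whole transcriptome, and so did those of the 10 genes. When the loci kept were split by mean normalized count into 10 bins of equal size, numbered from the lowest level, the median log2 fold change was 0.40 in bin 4, 0.04 in bin 6, -0.13 in bin 8 and -0.26 in bin 10. *rrp8* is in bin 4, *mak16* in bin 6, *ebp2* and *puf6* in bin 8 and *nop56* in bin 9, with a median of -0.18, while the other 5 core protein genes are in bin 10. All 10 genes were above the median of their own bin, *fib1* by the least. A median has as many loci of its bin above it as below it. The genes were picked with some of their values known, so this describes them and does not test them. *fib1*, *gar2* and *gar1* lay above a negative median with negative log2 fold changes of their own (-0.15, -0.10 and -0.10). With a loess trend over mean level removed from each library, the log2 fold changes were 0.63 for *mak16*, 0.73 for *ebp2*, 0.70 for *rrp8* and 0.83 for *puf6*, and among the core proteins 0.43 for *nop56*, 0.39 for *nop58*, 0.26 for *cbf5*, 0.14 for *gar2*, 0.13 for *gar1* and 0.07 for *fib1*. Removing the trend put *fib1*, *gar2* and *gar1* on the other side of 0, raised *ebp2* and *puf6*, and lowered *rrp8* and *mak16*. With library totals as the only scaling, which moves the median of all loci to 0.18, these 3 genes were at 0.03, 0.08 and 0.08.

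**Figure D3:**
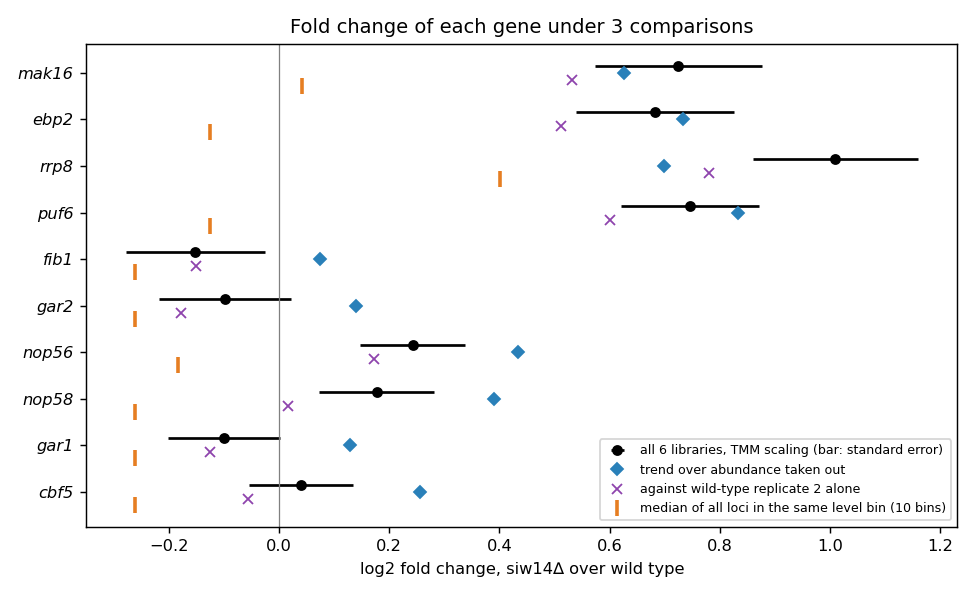
Log2 fold change (x axis, *siw14*∆ over wild type) of each gene, for all 6 libraries with TMM scaling (black, bar of 1 standard error), after removal of a trend over level (blue), and for the mean of the *siw14*∆ libraries against wild-type replicate 2 alone (violet), beside the median of all loci in the same level bin (orange). The assembly factors lie between 0.51 and 1.01 in all 3 comparisons, and *fib1*, *gar2*, *gar1* and *cbf5* have values on both sides of 0.

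The other genes of ribosome production were taken from 4 lists of symbols that leave the 10 genes out, 168 loci in all. Of these, 80 rose, 3 fell and 85 did not pass edgeR's test, and their median log2 fold change was 0.37, against 0.01 over all loci. Of 67 genes of the small subunit processome and 40S assembly, 37 rose and 2 fell. Of 65 genes in the list for 60S assembly 30 rose and none fell (5 were lower at an unadjusted p under 0.05, and DESeq2 and limma-voom called 4 and 2 lower). That list goes by symbol. The annotated products of some of its genes, *dbp5* and *npa3* among those that rose, name no role in 60S assembly. In the list of snoRNP partners, which holds assembly chaperones beside Nhp2, Nop10 and Snu13, 5 of 13 rose and none fell (1 at an unadjusted p under 0.05, and 0 by DESeq2 and limma-voom). For RNA polymerase I and its factors, 8 of 23 rose and 1 fell. In that order, the shares that rose were 55.2%, 46.2%, 38.5% and 34.8%, where 16.7% of all loci rose, and the median log2 fold changes were 0.44, 0.37, 0.25 and 0.28. After removal of the trend over level, 0 of the 168 passed in either direction, with 81 higher and 1 lower at an unadjusted p under 0.05, and their median was 0.28. The calls were also 0 without *siw14*∆ replicate 2 or without replicate 3, where 83 and 86 loci were higher and 13 and 6 lower at an unadjusted p, and the medians were 0.34 and 0.38, and 39 rose without *siw14*∆ replicate 1.

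**Figure D4:**
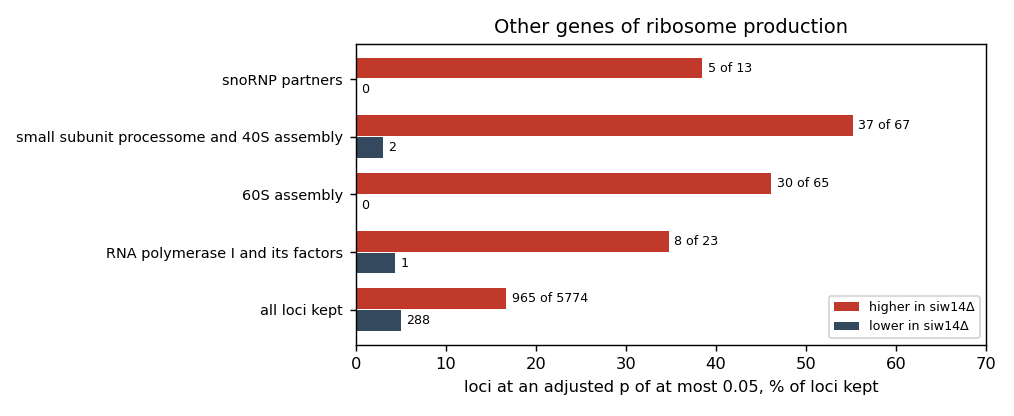
Percentage of the loci kept in each list that edgeR called higher (red) or lower (dark) in *siw14*∆ than in wild-type cells at an adjusted p of at most 0.05, with the counts beside the bars and all loci kept in the lowest row. The share called higher is 55.2% for the small subunit list and 16.7% over all loci.

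In the small subunit list, *bfr2*, of a conserved ribosome biogenesis family, had 684, 856 and 667 normalized counts in the *siw14*∆ replicates, against 336, 469 and 421 in the wild-type replicates. It rose by 0.85 on the log2 scale (standard error 0.15, edgeR adjusted p = 0.0234). *utp14* and *utp3*, components of the U3 snoRNP particle, rose by 0.67 and 0.73, and *rrp9*, which is specific to that snoRNP, by 0.54 on the log2 scale. In the 60S list, *nop8*, a ribosome biogenesis gene, had 591, 737 and 645 normalized counts in the *siw14*∆ and 290, 428 and 366 in the wild-type replicates. It rose by 0.86 on the log2 scale (standard error 0.15, edgeR adjusted p = 0.0234). The RNA-binding protein gene *nop12* rose by 0.70, *nsa2* by 0.56 and *acl4*, in budding yeast a chaperone of a ribosomal protein, by 0.70 on the log2 scale. The highest and lowest libraries of *bfr2* and *nop8* were those of the assembly factors, *siw14*∆ replicate 2 and wild-type replicate 1.

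Among the snoRNP partners, those that rose were not core proteins. *shq1*, whose protein holds Cbf5 before it enters the H/ACA particle, had 226, 233 and 246 normalized counts in the *siw14*∆ replicates, against 91.1, 154 and 141 in the wild-type replicates. It rose by 0.87 on the log2 scale (standard error 0.19, edgeR adjusted p = 0.0235). *naf1*, which takes the place of Gar1 during H/ACA assembly, rose by 0.63. *rvb2*, an AAA family ATPase that serves snoRNP assembly and chromatin complexes, rose by 0.60, *rsa1*, annotated as a ribosome assembly protein, by 0.71 and *bcd1*, of snoRNA biogenesis, by 0.62 on the log2 scale.

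Of the polymerase I list, the subunit genes *ker1* and *rpa34* rose by 0.78 and 0.66, and *reb1*, which ends polymerase I transcription, by 0.63 on the log2 scale. The gene that fell there was *rpb10*, a subunit shared by the nuclear RNA polymerases, at -0.31 on the log2 scale (standard error 0.09, edgeR adjusted p = 0.0348). Those that fell in the small subunit list were *rcl1*, at -0.31 (standard error 0.09, adjusted p = 0.0370), and *utp15*, at -0.30 (standard error 0.10, adjusted p = 0.0498), both from edgeR. All 3 were abundant RNAs, with means of 2900 normalized counts for *rpb10*, 5626 for *rcl1* and 2604 for *utp15* in *siw14*∆ cells, against 3608, 6989 and 3213 in wild-type cells. By edgeR 0 genes of the 4 lists were called lower with library totals as the only scaling, with the trend over level removed, with the replicate number as a block, or without any single library other than wild-type replicate 2, where 0 to 14 were lower at an unadjusted p.

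The level trend was present within the 168 loci too. Their median log2 fold change was 0.63 in bin 4 (17 loci), 0.51 in bin 6 (25 loci), 0.16 in bin 8 (26 loci), -0.06 in bin 9 (32 loci) and -0.20 in bin 10 (11 loci). In each of the 9 bins that held such loci, their median was above that of all loci of the bin, though bins 2 and 3 held only 2 and 5 of them.

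**Figure D5:**
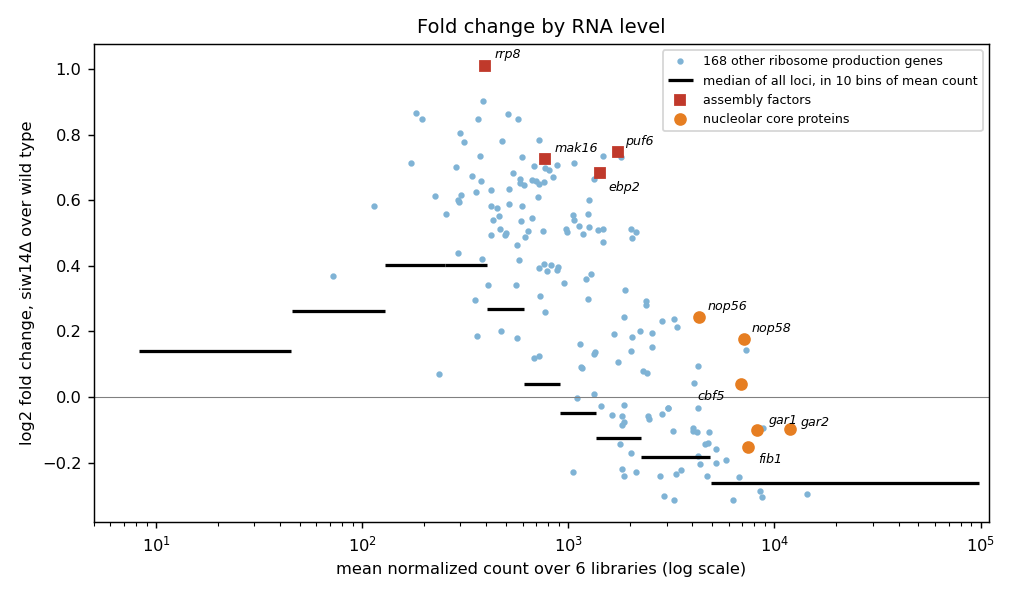
Log2 fold change (*siw14*∆ over wild type) against the mean normalized count over 6 libraries (log axis) for the 4 assembly factors (squares), the 6 core protein genes (orange circles) and the 168 other loci of ribosome production (light points), with bars at the median of all loci in each level bin. All 10 named genes lie above the bar at their level, and the bars run from 0.40 in bin 4 down to -0.26 in bin 10. The genes were picked with some of their values known, so their place above the bars is no test.

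Loci with the profile most like that of the 10 genes over the 6 libraries, by Pearson's r with the mean of their standardized log2 CPM, were *tit1* (r = 0.990), a tRNA isopentenyltransferase gene, *ddx27* (r = 0.990), an RNA helicase gene annotated as Ddx27/Drs1, *sap114* (r = 0.987), of the U2 snRNP, *scj1* (r = 0.987), a DNAJ domain protein gene, and the uncharacterized *SPAC23C4.04c* (r = 0.983). The points share 6 libraries of 2 genotypes, and 143 of the 5764 other loci had r above 0.9. The mean profile leaned to *nop56*, *cbf5* and *nop58* (r = 0.95, 0.90 and 0.88), while *gar1* and *fib1* followed it least (r = 0.16 each). The assembly factors had r of 0.74 to 0.79 with it. The 10 genes did not share a single profile. Over the 6 libraries *fib1*, *gar1* and *gar2* correlated negatively with each assembly factor (r from -0.55 to -0.21).

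Opposite-strand loci overlap 9 of the 10 genes in the ASM294v3 annotation, *nop58* being free of them. The libraries were made with a stranded kit, but the strand setting of the counting was not stated for these counts. *cbf5* is overlapped over all of its 1851 exon bases by SPNCRNA.1051, and *gar2* over 1465 bases by SPNCRNA.770. These noncoding loci had mean raw counts of 29.7 and 14.3 in *siw14*∆ libraries, against 21.3 and 17.7 in wild-type libraries, far below the counts of the genes they face. *ebp2* shares 2786 bases with the other strand, where the uncharacterized *SPAC17H9.06c* lies, whose mean raw count was 209.7 in *siw14*∆ and 112 in wild-type libraries (log2 fold change 0.74). *rrp8* shares 1074 bases with noncoding loci that have no line in the count table. The 16 genes with the smallest p in the 4 lists, 4 from each, likewise share 55 to 2979 bases with the other strand.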

How the data were processed

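Poly(A)+ RNA of 3 *siw14*∆ and 3 wild-type cultures was compared. The authors mapped paired reads to build ASM294v2 with HISAT2 2.1.0, used SAMtools, and counted reads over PomBase exons with HTSeq 0.10.0; the deposited table holds these raw counts. The last 5 lines name no gene, are filled only in the *siw14*∆ columns (31.6% to 35.8% of those libraries' counts) and were left out. A second deposited table holds the authors' own DESeq2 comparison (means, fold changes, p-values) and was not used. In R 4.3.3, edgeR 4.0.16 (filterByExpr, TMM, glmQLFit, glmQLFTest, Benjamini-Hochberg over 5774 loci) was fitted on genotype alone. A standard error is the log2 fold change divided by the root of F. Each library was a replicate of its own, since replicate pairs differed by 9.07 to 38.9 times sampling noise (chi-square per degree of freedom). The replicates are biological by their labels, of 1 strain per genotype. The p-values set the difference between the genotypes against the spread between these replicates, estimated in part over all loci. They do not cover differences between strains. On data simulated from these libraries (5739 loci), the test called 76.1% of 67 genes at 1.5-fold, 97.0% of 67 at 2-fold and 100% of 66 at 4-fold, with 10 false calls. The simulation drew each locus independently and placed changes only in loci above a minimum level. It held no trend over level and no state shared between loci of a library. Its rates therefore do not measure the error of the calls in the real libraries, where such a trend was present.

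The alternatives were DESeq2 1.42.0, limma-voom (limma 3.58.1), DESeq2 size factors, library totals only, 2 other filters (1 or more counts in some library, or 10 in every library), a replicate block, leaving out each library, and a loess trend (span 0.3) over abundance or GC content taken out. The comparison with wild-type replicate 2 alone and the split by level were added after seeing the data. The genes and lists were chosen with earlier results of these data known. Genes named from the lists are the 4 with the smallest p among those called, those called lower, and the core proteins and *bcd1*, which were picked by their role or after their values were seen. Of 235 pathway symbols, 6 that the annotation gives to another kind of gene and those without a match were dropped. Symbols, lengths, GC content and overlaps come from RefSeq's ASM294v3 annotation, which matched 6836 of 6988 IDs; the authors used an earlier build, and coordinates, promoters and proteins were not analysed here. The labels give no date or batch.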

Additional observations from a re-analysis of the deposited data

How the results depend on the processing

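The log2 fold changes of *mak16*, *ebp2*, *rrp8* and *puf6* stayed positive under every alternative, the comparison with wild-type replicate 2 alone included, at 0.53 to 0.89, 0.48 to 0.84, 0.70 to 1.18 and 0.60 to 0.91. *fib1*, *gar2*, *gar1* and *cbf5* lay on either side of 0 (-0.24 to 0.07, -0.18 to 0.14, -0.14 to 0.13 and -0.06 to 0.26). The lowest normalized count of any of the 10 genes was 221, for *rrp8*, so that counting error was small beside the spread between replicates. The replicate numbers did not pair the libraries (correlations of same-numbered deviations -0.26, 0.16 and -0.16), and with the replicate block 156 loci were lower, with 0 lower in the small subunit and 0 in the polymerase I list. With 1 library left out, the loci called ranged from 0 to 1204 higher and 1 to 717 lower over all loci, 0 to 6 higher among snoRNP partners, 0 to 42 higher and 0 to 2 lower in the small subunit list, 0 to 36 higher and 0 to 2 lower in the 60S list, 0 to 10 higher and 0 to 1 lower in the polymerase I list, and 0 to 16 lower in the stress list; the zeros higher came without *siw14*∆ replicate 2 or 3, where 1734 and 1756 loci had an unadjusted p under 0.05. With the abundance trend out, edgeR called 0 loci higher and 1 lower (1606 at an unadjusted p), 0 in each pathway list in either direction and 0 in the stress list. DESeq2 called 712 loci lower, 4 of them in the 60S and 2 in the polymerase I list, and its size factors in edgeR gave 495, 2 and 2. Library totals gave 31 loci lower, 8 snoRNP partners higher, 0 lower in the small subunit and polymerase I lists and 3 lower in the stress list. With the GC trend out, 883 loci were lower, 6 in the small subunit, 4 in the 60S and 4 in the polymerase I list, where 5 were higher. The filter of at least 1 count gave 1 lower in the small subunit list, that of 10 counts gave 2 lower in the 60S and 2 in the polymerase I list, and limma-voom gave 1 lower in the small subunit and 2 in the 60S list. Of all calls, 77.0% were higher, against 64.6% with DESeq2's size factors, 97.8% with library totals and 59.0% with DESeq2, 49.5% with the GC trend out. The cause of these shifts was not tested.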
